A study of Mus musculus with 4 samples.

Results

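The genes described here are 10 genes of the granulocyte and macrophage lineages, Mpo, Elane, Prtn3, Ctsg, Lyz2, Csf1r, Csf3r, Cebpa, Cebpe and Spi1, read as a check of lineage purity and priming in cells labelled as another lineage. They were found by gene symbol, or by an older symbol, among the probes of the arrays, and all 10 were present, with 13 of the 39418 probes and 10 of the 31703 gene names. Total RNA of mouse erythrocyte/megakaryocyte progenitors (MEP), progenitors of red cells and of the megakaryocytes that shed platelets, had been hybridised to 4 one-colour Agilent arrays, 1 array for each group. The groups were adult bone marrow labelled Ezh2-null, adult bone marrow labelled wild type, fetal liver of day E14.5 labelled Ezh2-null and fetal liver of day E14.5 labelled wild type, each on the C57BL/6 background. Ezh2 is the histone methyltransferase of Polycomb repressive complex 2. The labels do not state which surface markers isolated the cells, how many animals were pooled, which part of Ezh2 was deleted or in which cells. As each group has 1 array, no replicate stands behind a difference; differences are given by size, and the errors printed are those of the scanner software within an array.

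The granulocyte and macrophage lineages start in the same multipotent progenitors as MEP. Spi1 (the gene of PU.1) and Cebpa are the transcription factors that open this branch, Cebpe acts later in granulocytes, and PU.1 and the erythroid factor GATA1 oppose each other. Mpo, Elane, Prtn3 and Ctsg encode the enzymes of the primary granule and are made in large amounts at the promyelocyte stage, Lyz2 encodes lysozyme of mature granulocytes and macrophages, and Csf1r and Csf3r encode the receptors for the macrophage and granulocyte colony-stimulating factors. Low levels of such genes in cells not yet of the lineage are called priming.

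The 60-base probes below are shown because the readings of the granule genes and of PU.1 rest on them. Their coordinates are on mm9, per the file headers, and no letter is marked. The Mpo probe lies at chr11:87615121-87615180 on the + strand, from base 1629 of its transcript. The Prtn3 probe lies at chr10:79343869-79344685 on the + strand, from base 330, and the Spi1 probe at chr2:90939665-90953452 on the + strand, from base 275. The Prtn3 and Spi1 probes span 817 and 13788 bases of genome for 60 bases of probe, so each bridges an intron.
Mpo probe: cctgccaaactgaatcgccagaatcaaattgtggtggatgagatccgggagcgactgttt
Prtn3 probe: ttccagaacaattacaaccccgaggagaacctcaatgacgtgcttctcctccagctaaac
Spi1 probe: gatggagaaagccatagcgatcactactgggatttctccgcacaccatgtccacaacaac

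The 250 bases before the start site of the 4 primary granule genes and of Csf3r follow, from the RefSeq promoter table on GRCm38.p6, each on the strand of its gene. They are shown because each holds GAGGAA, the core bound by PU.1, whose own gene is among those measured. Both strands were searched, and the capitals mark the core. The table held 7 of the 10 genes, and 5 of the 7 promoters held the core, against 23.3% of 32851 promoters of the same length. The matches lay on the strand of the gene in all 5, from base -247 and from base -224 of Mpo, base -85 of Elane, base -95 of Prtn3, base -216 of Ctsg and base -86 of Csf3r, counted from the start site. The C/EBP core TTGCNNAA and the GATA core AGATAA had 0 matches in the 7, against 9.56% and 9.99% of promoters. Lyz2 and Cebpa held none of the 3 motifs in this window, and no statement on binding follows from a match or from its absence. The regions are chr11:87793534-87793783 on the + strand for Mpo, chr10:79886062-79886311 on the + strand for Elane, chr10:79879417-79879666 on the + strand for Prtn3, chr14:56102575-56102824 on the - strand for Ctsg and chr4:126024409-126024658 on the + strand for Csf3r.
Mpo promoter: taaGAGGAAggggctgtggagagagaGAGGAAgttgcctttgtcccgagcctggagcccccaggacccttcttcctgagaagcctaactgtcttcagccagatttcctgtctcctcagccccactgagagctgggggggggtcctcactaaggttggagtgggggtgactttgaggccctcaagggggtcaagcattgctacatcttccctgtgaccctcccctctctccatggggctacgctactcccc
Elane promoter: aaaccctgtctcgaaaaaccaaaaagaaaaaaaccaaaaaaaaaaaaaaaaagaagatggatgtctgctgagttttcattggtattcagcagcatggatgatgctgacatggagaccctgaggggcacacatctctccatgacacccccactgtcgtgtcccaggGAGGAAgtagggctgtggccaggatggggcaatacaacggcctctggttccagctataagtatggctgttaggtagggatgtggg
Prtn3 promoter: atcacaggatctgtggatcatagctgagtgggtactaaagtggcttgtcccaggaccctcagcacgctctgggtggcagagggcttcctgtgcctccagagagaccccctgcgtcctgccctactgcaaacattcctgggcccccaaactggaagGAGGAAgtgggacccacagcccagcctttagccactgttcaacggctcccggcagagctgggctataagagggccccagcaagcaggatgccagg
Ctsg promoter: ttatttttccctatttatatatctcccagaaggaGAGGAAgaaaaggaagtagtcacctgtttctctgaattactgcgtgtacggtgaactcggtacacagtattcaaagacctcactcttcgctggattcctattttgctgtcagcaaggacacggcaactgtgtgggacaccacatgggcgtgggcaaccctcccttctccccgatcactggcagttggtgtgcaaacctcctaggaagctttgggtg
Csf3r promoter: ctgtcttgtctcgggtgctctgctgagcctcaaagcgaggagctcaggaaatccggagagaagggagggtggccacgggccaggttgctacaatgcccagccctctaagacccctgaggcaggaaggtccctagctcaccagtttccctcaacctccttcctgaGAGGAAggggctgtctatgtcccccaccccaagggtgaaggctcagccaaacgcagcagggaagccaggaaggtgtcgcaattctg

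A level is the spot intensity after background correction by the scanner software, set to a common 75th percentile of the probes that were detected on all 4 arrays. A probe was called detected on an array where the software marked it as well above background, which held for 41.8%, 41.8%, 46.4% and 39.0% of probes on the Ezh2-null bone marrow, wild-type bone marrow, Ezh2-null fetal liver and wild-type fetal liver arrays. The lowest level of a detected probe, the floor, was 9.98, 11.1, 13.0 and 19.3 on those arrays. No spot was saturated. The 2 bone marrow arrays correlated at 0.982 over the detected probes on the log2 scale, and the other pairs at 0.915 to 0.937. Levels of different probes depend on the probe and are not set against each other. Ezh2 itself, read by 1 probe from base 2558, had a level of 70.0 in Ezh2-null against 35.4 in wild-type bone marrow. In fetal liver it had 194 on the Ezh2-null array, against 33.5 on the wild-type array. It was brighter on both arrays labelled Ezh2-null, so the probe goes against these labels if it lies in the deleted part and checks nothing if it lies outside. The labels do not say which. Ezh2-null and wild type below name the arrays labelled so, and each direction by genotype rests on those labels.

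The labelled cell type was checked against the other lineages. Of 8 erythroid and megakaryocyte transcription factors, 7, 7, 7 and 6 were detected in Ezh2-null bone marrow, wild-type bone marrow, Ezh2-null fetal liver and wild-type fetal liver. Gata1, the master factor of red cells, had levels of 7671, 7014, 6624 and 10281 on those arrays, and Fli1, a megakaryocyte factor, was detected on none. Erythroid markers were detected in 7, 7, 8 and 7 of 10, and megakaryocyte markers in 6, 5, 6 and 5 of 8. Among genes that gates for these cells use, Kit, Cd9 and Eng were detected on every array. Fcgr3 and Fcgr2b, Fc receptors that mark granulocyte-macrophage progenitors, were detected on none, nor were Ly6a and Slamf1. Cd34 was detected by 1 of its 2 probes, at 20.1 in Ezh2-null fetal liver, and by neither on the other arrays.

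Most of the lineage genes had levels under the floor or within a few times of it. Of the 10, 4 were detected in Ezh2-null bone marrow, 5 in wild-type bone marrow, 7 in Ezh2-null fetal liver and 6 in wild-type fetal liver. That is 40%, 50%, 70% and 60%, against 44.1%, 44%, 48.8% and 41.7% of all 31703 genes on those arrays. Detected on at least 1 array were 7 of the 10, against 55.7% of all genes. Mpo, Csf1r, Csf3r and Spi1 were detected on all 4 arrays, which held for 35.3% of all genes. Elane, Ctsg and Lyz2 were detected on none, as were 44.3% of all genes. Prtn3 was missed in Ezh2-null bone marrow, Cebpa was detected in both fetal liver arrays and Cebpe in Ezh2-null fetal liver alone. In RNA from a population, fewer cells of a type and less RNA per cell cannot be told apart.

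**Figure D1:**
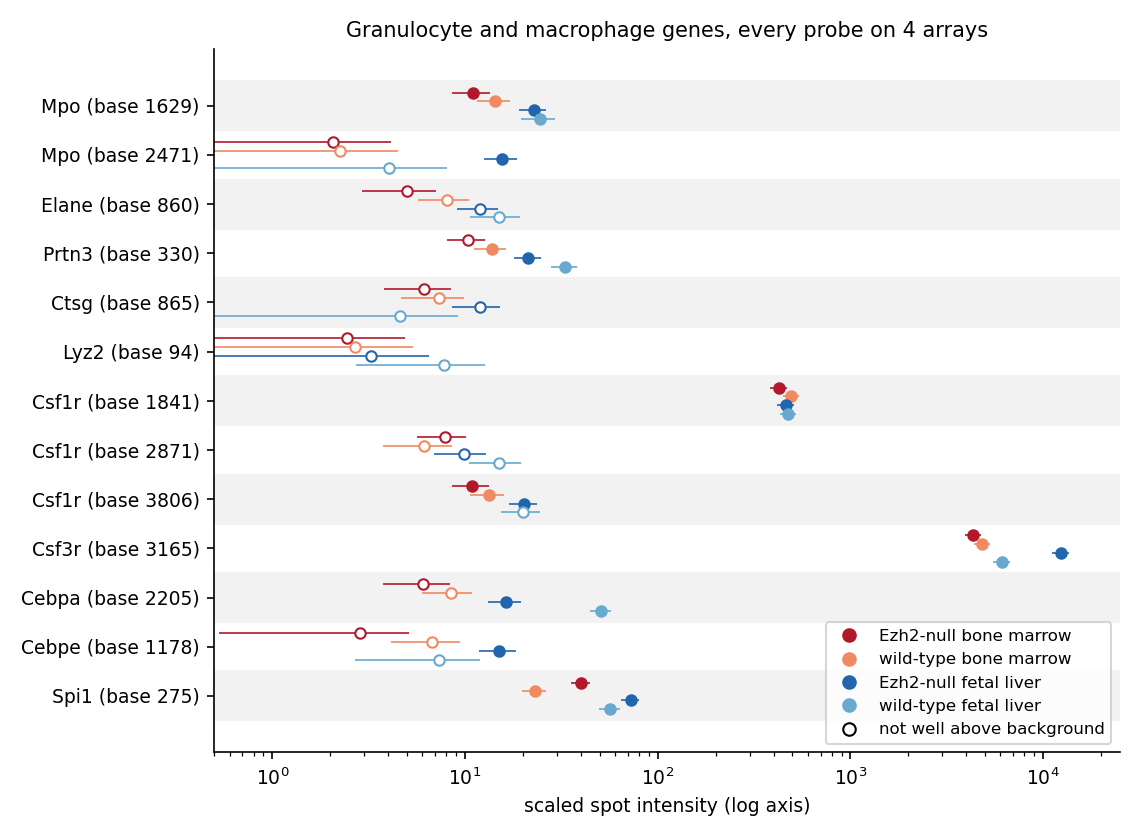
Levels of all 13 probes of the 10 genes on the 4 arrays (scaled spot intensity, log axis), with the start of each probe in its transcript. Filled points are detected, open points are not, and bars are the error within the array given by the scanner software. The Csf3r probe lies between 4348 and 12437 and the detected Mpo points between 11 and 24.4.

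The primary granule genes were near or under the limit of detection in both sources and both genotypes. Mpo, the peroxidase that defines the granulocyte branch, had levels of 11 ± 2.43 in Ezh2-null bone marrow, 14.3 ± 2.81 in wild-type bone marrow, 22.8 ± 3.64 in Ezh2-null fetal liver and 24.4 ± 4.92 in wild-type fetal liver (± the error within the array). These were 1.11, 1.29, 1.76 and 1.26 times the floor of each array. The levels had the same order over the arrays as the floors. Among 11173 other genes detected on all 4 arrays, the 5 whose centred log2 levels over the 4 arrays lay nearest to those of Mpo, by the root mean square difference, were Atp6v1b1 at 0.0114, Gm7632 at 0.0181, Ppifos and LOC100046879 at 0.0224 each and 6430590A10Rik at 0.0249. The other Mpo probe, from base 2471, was detected in Ezh2-null fetal liver alone, at 15.7 ± 3.08.

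Prtn3, proteinase 3, was not well above background in Ezh2-null bone marrow at 10.4 ± 2.34, and had 13.8 ± 2.63 in wild-type bone marrow, 21.4 ± 3.39 in Ezh2-null fetal liver and 33.1 ± 5.19 in wild-type fetal liver. It was highest in wild-type fetal liver, where it was 1.71 times the floor. Elane, neutrophil elastase, read 5.0, 8.1, 12.0 and 14.9 in the same order of arrays and passed on none. Its probe lies 6216 bases from that of Prtn3 on chromosome 10. Ctsg, cathepsin G, read 6.13, 7.29, 11.9 and 4.6, and Lyz2 read 2.44, 2.69, 3.24 and 7.74, all of them under the floor of their array. For these 3 genes no difference was formed.

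Most granule genes of later neutrophils were not detected. Of 12 such genes 1 was detected, Lcn2 (lipocalin 2), on all 4 arrays, at 72.5 in Ezh2-null bone marrow, 70.1 in wild-type bone marrow, 122 in Ezh2-null fetal liver and 162 in wild-type fetal liver. The other 11 were detected on none, among them S100a8 and S100a9 (calprotectin), Ltf (lactoferrin), Camp (cathelicidin) and Ngp. Of all genes 35.3% were detected on all 4 arrays and 44.3% on none.

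Both receptor genes were clearly above background by 1 probe. Csf3r, the receptor for granulocyte colony-stimulating factor, is read by 1 probe, from base 3165 of its transcript. Its levels were 4348 ± 435 in Ezh2-null bone marrow, 4848 ± 485 in wild-type bone marrow, 12437 ± 1244 in Ezh2-null fetal liver and 6104 ± 610 in wild-type fetal liver, or 436, 436, 958 and 316 times the floor. The Ezh2-null fetal liver array stood above the other 3, which lay between 4348 and 6104. No other probe of Csf3r was there to compare with, and whether this probe also binds other transcripts was not tested, so the Csf3r levels and differences below are those of 1 probe.

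Csf1r, the receptor for macrophage colony-stimulating factor, was close to level across the arrays by its brightest probe, from base 1841: 428 ± 42.8 in Ezh2-null bone marrow, 494 ± 49.5 in wild-type bone marrow, 461 ± 46.2 in Ezh2-null fetal liver and 477 ± 47.9 in wild-type fetal liver. The 3 probes disagreed on whether the gene was clearly detected. The probe from base 3806 read 10.9, 13.3, 20.3 and 20 in that order, passed on the first 3 arrays and was at most 1.56 times the floor. The probe from base 2871 passed on none. The high Csf1r level rests on the probe from base 1841 alone.

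Of the transcription factors, Spi1 was detected on every array and the C/EBP factors were not. Spi1, named Sfpi1 in the files, had 39.8 ± 4.46 in Ezh2-null bone marrow, 23.0 ± 3.25 in wild-type bone marrow, 72.4 ± 7.73 in Ezh2-null fetal liver and 56.5 ± 7.01 in wild-type fetal liver. Both fetal liver arrays were above both bone marrow arrays, and the null array was above the wild-type array in each source. These directions depended on the setting: Ezh2-null minus wild-type fetal liver was -0.21 with normexp, a model-based background correction of the raw spot signal, and bone marrow minus fetal liver in Ezh2-null cells was 0.04 when arrays were scaled to 3 of Agilent's spike-in probes. Cebpa read 6.06 ± 2.30 and 8.47 ± 2.47 in Ezh2-null and wild-type bone marrow, neither well above background, and 16.3 ± 3.18 in Ezh2-null and 50.9 ± 6.53 in wild-type fetal liver. Its level stood out in wild-type fetal liver, at 2.64 times the floor. Cebpe read 2.84, 6.75, 15.1 and 7.34 in Ezh2-null bone marrow, wild-type bone marrow, Ezh2-null fetal liver and wild-type fetal liver, and passed in Ezh2-null fetal liver, at 1.16 times the floor.

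Differences were formed for genes detected on at least 1 array of a pair and called at 2-fold, a log2 difference of 1. Where 1 array was dim the difference is a bound against its floor or the dim probe's own level, whichever was higher, given as at least N-fold. A gene detected on 1 array of a pair was compared because it passed there, so counts and medians over the compared genes describe them and support nothing more.

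Ezh2-null was set against wild type to ask what the loss of Ezh2 changes. In fetal liver the granulocyte receptor gene Csf3r was higher in Ezh2-null cells and Cebpa was lower, while Mpo, Csf1r, Prtn3 and Spi1 stayed within 2-fold. Of 7 lineage genes compared 1 was higher and 1 lower, where 15.4% of 16257 genes were higher and 13.3% lower, 28.7% in all, shares close to those of the lineage genes. The median over the 7 was -0.05, against -0.14 over all genes compared. Csf3r had a log2 difference of 1.03 ± 0.20, 2.04-fold higher in Ezh2-null fetal liver, and Cebpa one of -1.64 ± 0.34, 3.12-fold lower. Relative to the median of all genes these were 1.17 and -1.50.

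The Csf3r call sat at the threshold. Its log2 difference was 0.97 with normexp, 0.86 with the percentile taken over all probes and 0.96 once the trend of differences with probe position was subtracted, all under 2-fold and all higher in the null array. The Cebpa difference was -0.90 with normexp. Prtn3 had -0.63 ± 0.32, Spi1 0.36 ± 0.24, Mpo -0.10 ± 0.37 and Csf1r -0.05 ± 0.20 in Ezh2-null minus wild-type fetal liver, none past 2-fold, and Cebpe had no bound above 1-fold. Mpo had 0.93 with its probes averaged. Its probe from base 2471 read 15.7 in Ezh2-null and 4.02, not well above background, in wild-type fetal liver.

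Cebpa is also expressed by hepatocytes, the main cells of the liver outside its blood-forming niches. Of 7 hepatocyte genes, 2 were called lower along with it in Ezh2-null fetal liver, where 13.3% of all genes compared were lower. The summed level of the 7 was 75.6 in Ezh2-null bone marrow, 75 in wild-type bone marrow, 149 in Ezh2-null fetal liver and 560 in wild-type fetal liver. Apoa2 alone had 37.1, 35.3, 79.5 and 419 of these sums. Of the 7 genes 3 were detected, and in Ezh2-null against wild-type fetal liver 2 of these 3 were lower: Apoa2 (apolipoprotein A-II) by 5.27-fold and Apoa1 by 2.67-fold. The other, Serpina1a, had a log2 difference of -0.68, under 2-fold. Alb (albumin), Afp and Ttr, the defining liver genes, were detected on none. The part of these cells in the Cebpa difference was not tested.

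In bone marrow, Ezh2-null was again set against wild type, and none of the 5 lineage genes compared was 2-fold apart, where 4.54% of 15279 genes were higher and 7.64% lower, 12.2% in all. The median over the 5 was -0.21, against -0.04 over all genes. Spi1 differed most, with a log2 difference of 0.79 ± 0.26, 1.73-fold higher in Ezh2-null bone marrow. Mpo had -0.37 ± 0.43, Csf1r -0.21 ± 0.20 and Csf3r -0.16 ± 0.20, and Prtn3 was at least 1.32-fold lower in Ezh2-null bone marrow. PU.1 is also made by early B cells, and lymphoid genes stood out on the Ezh2-null array. Their summed level over 10 genes was 3893 in Ezh2-null and 215 in wild-type bone marrow, with 7 and 4 genes detected. Of 7 compared, 6 were higher in Ezh2-null bone marrow: Vpreb1, of the pre-B receptor, at least 198-fold and Dntt, the terminal transferase of lymphoid progenitors, 18.0-fold. Il7r, Ebf1 and Cd3g, which mark B and T cells, were detected on neither. The part of lymphoid cells in the Spi1 difference was not tested.

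**Figure D2:**
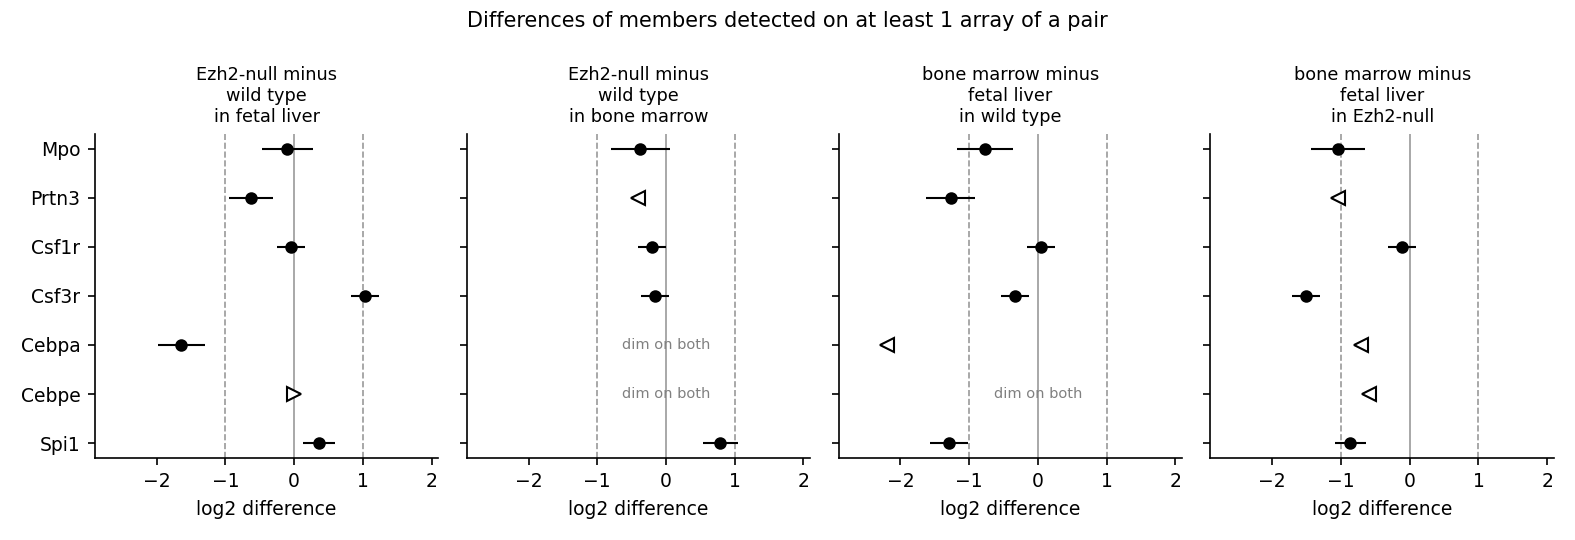
Log2 differences of the 7 lineage genes detected somewhere, in the 4 comparisons, each the first group minus the second. Circles are measured on both arrays with the error within the arrays as bars, triangles are bounds that point to larger differences, and dashed lines mark 2-fold. Csf3r at 1.03 and Cebpa at -1.64 in fetal liver are the only genotype differences past the lines.

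The sources were then compared within a genotype. In wild type, bone marrow was 2-fold lower than fetal liver for 3 of the 6 lineage genes compared and 2-fold higher for none, where 31.9% of 15382 genes were lower and 13.1% higher, 45% in all. With 6 genes these shares cannot be set apart. Cebpa was at least 4.58-fold lower in bone marrow, Spi1 2.45-fold lower with a log2 difference of -1.29 ± 0.27, and Prtn3 2.40-fold lower with -1.27 ± 0.36. The Spi1 and Prtn3 calls ended with the percentile over all probes (-0.94 and -0.91), quantile normalization (-0.91 and -0.74), a pseudocount of 16 added to each level (-0.89 and -0.72), the position trend removed (-0.50 and -0.48) and spike-in scaling, and that of Cebpa with spike-in scaling, at -0.90. Hepatocyte genes were lower with Cebpa, 3 of 3 compared, with Apoa2 11.9-fold lower in wild-type bone marrow, and their part was not tested. Mpo had -0.77 ± 0.41, Csf3r -0.33 ± 0.20 and Csf1r 0.05 ± 0.20. The median over the 6 was -1.02, against -0.58 over all genes compared, and relative to -0.58 Spi1 had -0.72 and Prtn3 -0.69, both under 2-fold.

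In Ezh2-null cells 3 of 7 lineage genes were 2-fold lower in bone marrow than in fetal liver and none was higher, where 26.9% of 16688 genes were lower and 10.4% higher, 37.2% in all. Csf3r was 2.86-fold lower with a log2 difference of -1.52 ± 0.20, Mpo 2.07-fold lower with -1.05 ± 0.39, and Prtn3 at least 2.06-fold lower. The Mpo and Prtn3 calls sat at the threshold and near the floor, and both ended with normexp (-0.56 and -0.66), the percentile over all probes (-0.42 and -0.41), quantile normalization (-0.27 and -0.25), spike-in scaling (-0.15 and -0.14), the pseudocount (-0.52 and -0.50) and the position trend removed (-0.81 and -0.74). That of Mpo also ended with the probe nearest the 3 prime end, at -0.65. The Csf3r call ended with spike-in scaling, at -0.62, and with the percentile over all probes, at -0.89. Spi1 had -0.86 ± 0.22, Csf1r -0.11 ± 0.20, Cebpa was at least 1.64-fold lower and Cebpe at least 1.51-fold lower. The median over the 7 was -0.86, against -0.51 over all genes compared. Relative to that, Csf3r had -1.01 and Mpo -0.54. The comparisons that share an array are not independent of each other.

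The split between higher and lower calls over all genes depended on the scaling. In Ezh2-null against wild-type fetal liver 53.6% of the called genes were higher, but 42.5% with normexp, 41.8% with the percentile over all probes, 68.5% with the position trend removed and 82.0% with spike-in scaling. In bone marrow against fetal liver the main share was 29.1% in wild type and 27.8% in Ezh2-null cells. With spike-in scaling these were 94.5% and 75.1%, with the percentile over all probes 55.0% and 64.2%, with quantile normalization 51.9% and 52.2%, and with the position trend removed 63.5% and 47.2%. In wild type it was also 11.9% with normexp and 39.7% with the pseudocount. With spike-in scaling no lineage gene was 2-fold lower in bone marrow in either genotype, Csf1r became 2-fold higher in wild type, and Prtn3 changed direction there, to 0.03, as did Mpo, to 0.52, and Csf3r, to 0.96.

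**Figure D3:**
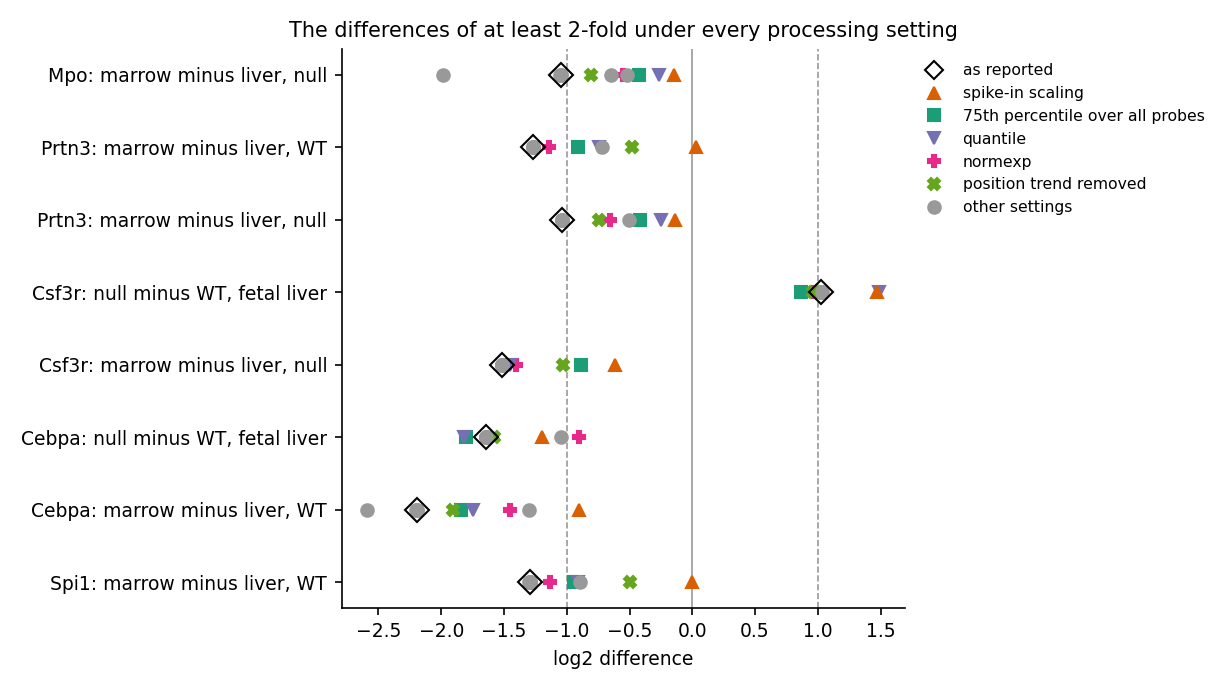
Log2 differences of the lineage genes that were at least 2-fold apart as reported (open diamonds) and under the other processing settings (filled symbols), with dashed lines at 2-fold. Null stands for Ezh2-null and WT for wild type. The Csf3r difference in fetal liver ran from 0.86 to 1.49, and the bone marrow against fetal liver differences moved to the right with spike-in scaling, where Prtn3 in wild type was at 0.03.

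Where a probe starts in its transcript moved with the differences in fetal liver. The median log2 difference of Ezh2-null minus wild-type fetal liver over measured genes was -0.49 for probes that start within the first 500 bases and 0.31 for those above base 5000. In bone marrow it ran between -0.01 and -0.10. Among the 594 genes with a probe within 250 bases of the Csf3r position the fetal liver median was 0.07, against 1.03 for Csf3r. For the 2261 genes around the Spi1 position the median of wild-type bone marrow minus wild-type fetal liver was -0.87, against -1.29 for Spi1. For the 628 genes around that of Csf3r it was -0.65 in Ezh2-null cells, against -1.52 for Csf3r. With the trend subtracted, Csf3r had 0.96 in the fetal liver comparison and -1.03 between the sources in Ezh2-null cells, both in the same direction as before. Spi1 had -0.50 between the sources in wild type, under 2-fold.

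**Figure D4:**
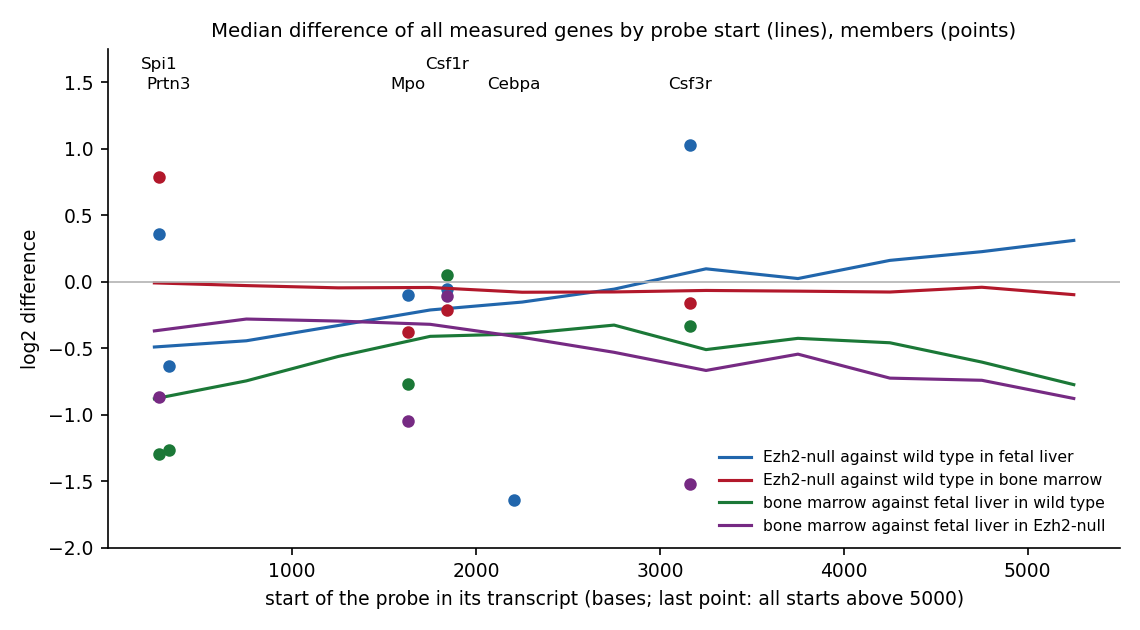
Median log2 difference of all measured genes by the start of the probe in its transcript (lines, bins of 500 bases) and the measured lineage genes (points) in the 4 comparisons. The fetal liver genotype line climbs from -0.49 to 0.31, and the Csf3r point of that comparison lies at 1.03, above it.

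Other genes of the lineages were counted from lists. Of 10 genes of early granulocyte-monocyte progenitors, 5 were detected in Ezh2-null bone marrow, 4 in wild-type bone marrow, 6 in Ezh2-null fetal liver and 3 in wild-type fetal liver. Of all genes, 44.1%, 44%, 48.8% and 41.7% were detected on those arrays, shares that also stand beside the lists below. Ms4a3 and Clec12a, of which Ms4a3 marks granulocyte-monocyte progenitors, were detected on none. Serpinb1a, an inhibitor of neutrophil elastase, had 31.3 in Ezh2-null bone marrow, against 6.35, not well above background, in wild-type bone marrow, at least 2.82-fold higher, and was the 1 gene called of 5 there, where 12.2% of all genes were called. None of 6 was called in Ezh2-null against wild-type fetal liver, where 28.7% of all genes were.

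Between the sources this list split. In Ezh2-null cells 4 of 8 were higher in bone marrow and 1 lower, and in wild type 2 of 5 were higher and 1 lower. Over all genes 10.4% were higher and 26.9% lower in Ezh2-null cells, and 13.1% higher and 31.9% lower in wild type. Srgn (serglycin, a granule proteoglycan), Plac8 and Nkg7, which lymphoid and other blood cells also make, were 4.66-fold, 4.04-fold and 3.69-fold higher in Ezh2-null bone marrow. The 2 probes of Plac8 disagreed in size: the one used starts at base 0 of its transcript, while the one from base 591 had 786 in Ezh2-null and 703 in wild-type bone marrow and was not well above background in either fetal liver array, at 6.61 and 7.01. Ctsc, the protease that activates the granule serine proteases, was at least 3.57-fold lower in Ezh2-null and at least 4.53-fold lower in wild-type bone marrow. Its levels were 35.7 in Ezh2-null and 50.4 in wild-type fetal liver.

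Of 13 monocyte and macrophage genes, 4, 4, 4 and 3 were detected in Ezh2-null bone marrow, wild-type bone marrow, Ezh2-null fetal liver and wild-type fetal liver, and 7 on none, among them Cd14, Mrc1 and C1qa. The summed level was 53659, 54270, 85424 and 105293, nearly all of it from the brightest probe of Itgam (integrin CD11b), from base 4431, at 53539 in Ezh2-null bone marrow and 105022 in wild-type fetal liver. The other Itgam probes read between 17.2 and 65.9, and whether the brightest one also binds other transcripts was not tested, so its level may not be that of Itgam. Without Itgam the sum was 120, 138, 223 and 271. Between the sources, 2 of 5 compared were lower in Ezh2-null bone marrow and 2 of 4 in wild-type bone marrow, and none was higher. Over all genes 26.9% and 31.9% were lower there. C1qb, a complement chain of macrophages, was 2.08-fold lower in Ezh2-null and 2.86-fold lower in wild-type bone marrow than in fetal liver. Cx3cr1, the fractalkine receptor, was at least 3.04-fold lower in Ezh2-null bone marrow, and Adgre1 (F4/80) was 2.22-fold lower in wild-type bone marrow. The other probe of each of Cx3cr1 and Adgre1 was detected on no array. In Ezh2-null fetal liver that of Cx3cr1 read 2.70, where the probe used read 30.3. No gene of 4 was called in Ezh2-null against wild-type fetal liver, and in bone marrow 1 of 5 was, Cd68, at least 2.43-fold lower in Ezh2-null cells, where 28.7% and 12.2% of all genes were called.

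Of 7 other receptors for myeloid cytokines, 4, 3, 4 and 3 were detected in Ezh2-null bone marrow, wild-type bone marrow, Ezh2-null fetal liver and wild-type fetal liver. Flt3, the receptor of early lymphoid and myeloid progenitors, was detected on none. Csf2ra, a chain of the GM-CSF receptor, had 33.2 in Ezh2-null bone marrow against 12.1 in wild-type bone marrow, at least 2.75-fold higher, and Ifngr1, of the interferon gamma receptor, was 2.19-fold lower there. Of 4 genes compared by genotype in bone marrow, 1 was higher and 1 lower, where 12.2% of all genes were called. Il3ra, a chain of the interleukin 3 receptor, was 2.04-fold lower in Ezh2-null than in wild-type fetal liver. That was 1 of 4 compared, where 28.7% of all genes were called. Between the sources, 1 of 3 was higher and 2 lower in wild-type bone marrow, where 13.1% of all genes were higher and 31.9% lower. In Ezh2-null bone marrow 1 of 4 was higher and 1 lower, against 10.4% and 26.9%. Ifngr1 was the higher one, at log2 2.32 in wild type and 1.08 in Ezh2-null cells. Il3ra was lower in both, with -2.20 and -1.17, and Csf2rb in wild type by its brighter probe, with -1.17.

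Of 10 other transcription factors of the branch, 4, 3, 3 and 1 were detected in the same order of arrays. Cebpb, of monocytes and stress granulopoiesis, had levels of 2395 in Ezh2-null and 724 in wild-type fetal liver, a 3.31-fold difference, and of 435 in Ezh2-null and 507 in wild-type bone marrow. Runx1, which blood stem cells and megakaryocytes also use, was at least 2.28-fold higher in Ezh2-null fetal liver. The other probe of Runx1 was detected on no array. Cebpb and Runx1 were the 2 called of 3 in fetal liver, where 28.7% of all genes were called. None of 4 was called by genotype in bone marrow, where 12.2% were. Irf8, the monocyte factor, was detected in Ezh2-null bone marrow alone, at 11.4, and Gfi1, Klf4, Id2, Cebpg and Egr2 were detected on none. Between the sources, Cebpd alone was called higher in bone marrow, 1 of 5 in Ezh2-null cells and 1 of 3 in wild type. It had 74.1 in Ezh2-null and 44.5 in wild-type bone marrow. In fetal liver it read 11.8 and 17.9 in that order, not well above background. Cebpb alone was called lower, in Ezh2-null cells, with a log2 difference of -2.46. Over all genes 10.4% were higher and 26.9% lower in Ezh2-null cells, and 13.1% and 31.9% in wild type.

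Of 7 genes of mast cells, basophils and eosinophils, 3, 2, 2 and 2 were detected in the same order of arrays. Prg2 and Epx, granule proteins of eosinophils, were detected on all 4. Epx had 31.1 in Ezh2-null and 21.6 in wild-type bone marrow, against 56.6 in Ezh2-null and 77.6 in wild-type fetal liver, 3.6-fold lower in bone marrow in wild type. Prg2 was 3.39-fold lower in Ezh2-null and 2.33-fold lower in wild-type bone marrow. Between the sources, 1 of 3 compared was lower in Ezh2-null and 2 of 2 in wild-type bone marrow, where 26.9% and 31.9% of all genes were lower. By genotype none of 2 was called in fetal liver and none of 3 in bone marrow, where 28.7% and 12.2% of all genes were called.

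**Figure D5:**
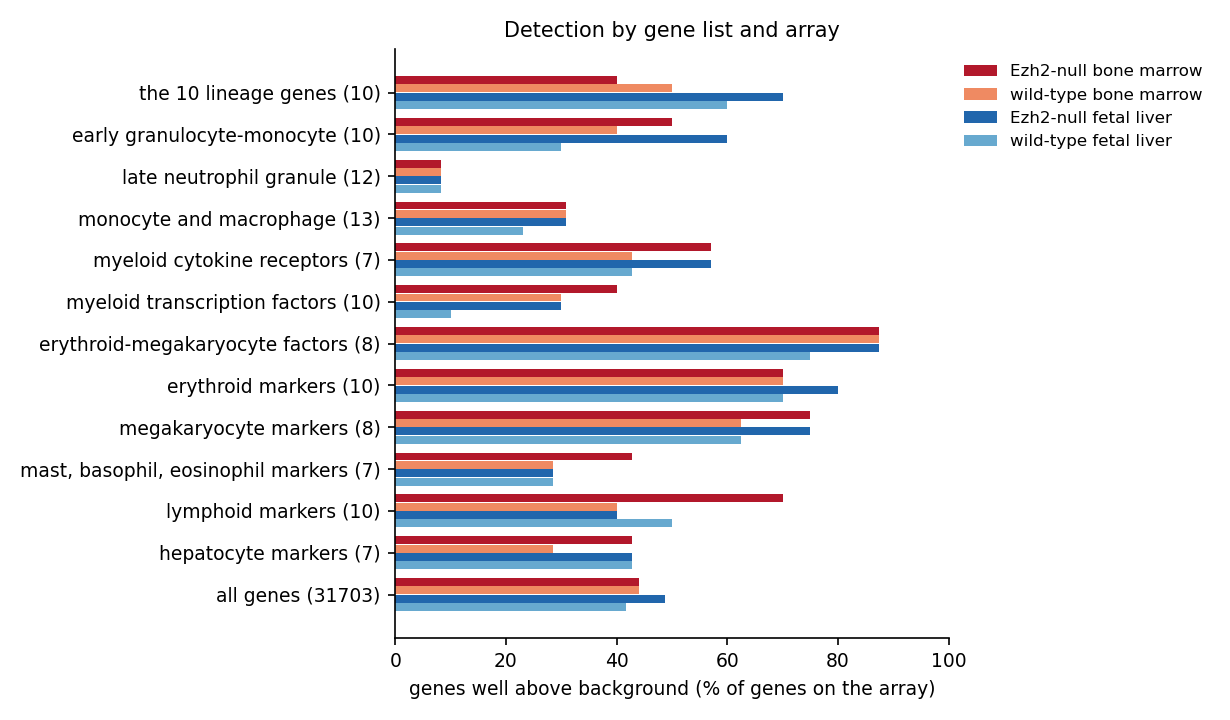
Share of genes detected on each array, by gene list, with the number of genes on the array in brackets. The late neutrophil list stands at 8.33% on every array and the erythroid-megakaryocyte factors at 75% to 87.5%, beside 41.7% to 48.8% of all genes.

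One fit across the 4 arrays had a residual, limma with source and genotype as additive terms and 1 residual degree of freedom. Of 16250 genes tested with Benjamini-Hochberg adjustment 0 were called for genotype, 0% of them, and 0 for source, also 0%. At an unadjusted p under 0.05 limma gave 278 genes for genotype and 2648 for source. Of the lineage genes 6 were tested. The fit raised levels under 19.3 to it, which set Cebpa equal on every array except wild-type fetal liver. Its log2 effects for genotype and for source were therefore both -0.70, and the fit cannot tell them apart. Mpo and Prtn3 were likewise set equal on the 2 bone marrow arrays. The lowest limma adjusted p for source was that of Spi1, 0.304, with a log2 effect of bone marrow minus fetal liver of -1.08 ± 0.41 (SE), lower in both genotypes. For Csf3r and Cebpa the limma adjusted p for source was 0.367 and 0.481. For genotype limma gave the 6 an adjusted p of 0.995 or 0.996. Csf3r had a genotype effect of 0.43 ± 0.48 (SE) in the limma fit, and its differences had opposite signs in the 2 sources. The additive fit counts such a disagreement between the sources as error, so it cannot test whether the genotype effect differs by source.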

How the data were processed

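RNA of 4 samples, 1 per group, was measured on 1-colour arrays of 1 slide. The deposited intensity values were Agilent Feature Extraction 10.7.3.1 output, background-subtracted and detrended within each array, per the file headers, with no step between arrays. Its error of the intensity of each spot, from the same files, is the error within an array. The authors' series table held the same intensities rounded (medians 8.63, 10.3, 10.8 and 7.05 for Ezh2-null and wild-type bone marrow and Ezh2-null and wild-type fetal liver, linear, uncentred, at most 0.496% off). Per the labels' protocols 250 ng of Trizol-extracted RNA was labelled with Cy3.

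Control and outlier spots were left out (135, 95, 97 and 101 outlier spots in that order, of 43020), and spots of 1 probe were averaged; 11 probes had none left on some array. Log2 intensities were scaled to the 75th percentile over 12880 probes well above background on every array. Under 50% of probes were well above background, so the percentile over all probes is an alternative. Copies of 399 probes with 10 spots each varied within an array by a median log2 SD of 0.106, 0.0797, 0.106 and 0.143 in that order. That leaves out variation between arrays, whose number limits the precision. The probe with the highest mean log2 level stood for a gene. Gene names were matched through a RefSeq table of GRCm38.p6, for 26048 probes on accession, 3193 on symbol and 929 on an older name; the remaining 9248 probes kept theirs. The fit (limma 3.58.1, R 4.3.3, two-sided, threshold 0.05) raised levels under 19.3 to it and was tested on simulated data. With 1 array per group, the residual of the fit is the disagreement of the genotype differences between bone marrow and fetal liver. Its p-values weigh each effect against that disagreement, pooled in part over genes by limma. They measure no spread between replicate samples or between animals, and the labels name no separate animals.

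The members and gene lists were chosen with earlier results of these data known. Named were the members, Ezh2, at most 4 genes a list and comparison with the largest called differences and the 5 nearest Mpo; others, such as genes named as undetected, were chosen after their values were seen. Alternatives were other background corrections, scalings, probe choices and filters, a pseudocount, the position trend and the authors' table.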

Additional observations from a re-analysis of the deposited data

Results flagged for a closer look

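Csf3r differed by genotype in opposite directions in the 2 sources. Its log2 difference of Ezh2-null minus wild type was 1.03 in fetal liver, with levels of 12437 and 6104, and -0.16 in bone marrow, with levels of 4348 and 4848. The difference between the 2 was not tested, as each group has 1 array. Opposite signs with at least 1 difference past 2-fold were found in 2217 of 11177 genes measured on all 4 arrays, 19.8%. The bone marrow difference is smaller than the error within the arrays, 0.20, and the fetal liver one is at the 2-fold threshold.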

How the results depend on the processing

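No paired analysis was possible because each group has 1 array and the labels carry no replicate numbers that match groups; for the same reason no replicate could be left out. Under the alternatives, counts of lineage genes past 2-fold moved as follows. In Ezh2-null against wild-type fetal liver the 1 higher gene, Csf3r, became 0 with normexp, 0 with the percentile over all probes and 0 with the position trend removed, and 3 with no filter on detection; the 1 lower gene, Cebpa, became 0 with normexp and 2 with no filter. In bone marrow the 0 lower became 1 with no filter. For wild-type bone marrow against fetal liver the 3 lower became 0 with spike-in scaling and 1 with each of the percentile over all probes, quantile normalization, a pseudocount of 16 and the position trend removed, and the 0 higher became 1, Csf1r, with spike-in scaling. For Ezh2-null bone marrow against fetal liver the 3 lower became 0 with spike-in scaling, 0 with the percentile over all probes, 1 with each of normexp, quantile normalization, the pseudocount and the position trend removed, and 6 with no filter. Prtn3 in wild-type bone marrow minus fetal liver changed sign with spike-in scaling, to 0.029. The cause of these moves was not tested. Of the values of single lineage genes under the alternatives, 233 kept their side of 2-fold, among which values under 2-fold could change sign. Another 29 fell under 2-fold, 4 passed it and 1 value past 2-fold, that of Prtn3, changed sign. The 233 are no measure of stability. For a gene with 1 probe the probe choices return the value as reported, and the authors' table holds the same intensities rounded. Values that were under 2-fold as reported are also among them.

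Over all genes, the median difference of bone marrow minus fetal liver shifted by 1.26 (log2) in wild type and by 0.88 in Ezh2-null cells with spike-in scaling, and by 0.35 and 0.61 with the percentile over all probes. That of Ezh2-null minus wild-type fetal liver shifted by 0.36 and by -0.16. Genes called past 2-fold fell to 1848 with normexp in fetal liver, against 4664 as reported, and to 363 in bone marrow, against 1861, where 1113 were called among genes detected on both arrays, 870 with the pseudocount and 4972 with no filter. With no filter 8525 were called in fetal liver by genotype, and by source 13004 in wild type, against 6917, and 11156 in Ezh2-null cells, against 6210; the pseudocount left 4062 and 4017, and normexp 2974 in Ezh2-null cells. The additive limma fit called 14 genes for genotype with normexp and 8 with the percentile over all probes. For source it called 1287 and 959 with these, 222 with quantile normalization and 246 among genes detected on all arrays. None of the genes called was a lineage gene. With normexp and with the percentile over all probes limma gave all genes 1 shared variance, which the fit as reported did not. Those counts are therefore not like for like with the main fit. Most lineage probes lie within a few times the floor. Csf3r, the brightest probe of Csf1r and Spi1 lie above it by 2.07 times or more on every array.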
